A study of Homo sapiens with 22 samples.

Results

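The regions described here are the RAD21 peaks that were called after 24 h of NIPBL degradation in 2 clones of hTERT RPE-1, human cells of the retinal pigment epithelium that telomerase keeps dividing. They were chosen as all 28589 peaks of the clone A2 list and all 30114 peaks of the clone D7 list at 24 h, 58703 of the 341123 peaks in the 12 deposited lists. A peak was called shared where a peak of the other clone overlapped it by at least 1 bp, and A2-only or D7-only where none did. The groups were clone NIPBL-A2 (genotype mCherry-P2A-FKBP12(F36V)-NIPBL) and clone NIPBL-D7 (genotype mGreenLantern-P2A-FKBP12(F36V)-NIPBL), each treated with DMSO for 24 h or with dTAGV-1 for 4 h or 24 h. All of these cells therefore carry the degron tag, a domain through which the small molecule dTAGV-1 directs the fused protein to the proteasome, also in the DMSO controls. Each line is 1 clone with its own fluorescent reporter, each group is 1 library, and the clones are separate groups and not replicates. The cells were cycling without synchronisation, and about 10% mouse NIH/3T3 chromatin was added, from which no factor was used here. Wild-type cells gave the CTCF and WAPL lists, clone D7 the STAG1, STAG2 and PDS5A lists, and clone A2 the HA list. The PDS5A list came from D7 cells after DMSO for 24 h, and no list other than RAD21 is labelled with dTAGV-1. Overlap with these lists thus does not show what was bound after NIPBL loss. No list measures how much NIPBL was left after dTAGV-1.

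Cohesin is a ring of SMC1A, SMC3, RAD21 and either STAG1 or STAG2 that holds and extrudes loops of DNA. NIPBL, with MAU2, loads the ring and drives extrusion. CTCF, bound to its own motif, stops the ring, which is why RAD21 peaks pile up at CTCF sites. PDS5A and WAPL bind the ring and take part in its release from chromatin. RAD21 still found on DNA after NIPBL is removed is called residual cohesin below.

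In brief, 81.9% of A2 peaks and 77.8% of D7 peaks at 24 h were shared, and the shared peaks were the stronger ones, with CTCF at 95.8% and STAG1 at 81.5%. Peaks of 1 clone were mostly weak, but D7-only peaks held 2 large blocks. The first held CTCF and STAG2 sites of middling strength that were RAD21 peaks of A2, not D7, in DMSO and at 4 h. The second held weak sites, mostly under the STAG1 list, of which 46.4% lay at gene ends. Neither profile was confined to its block. Some D7-only peaks that D7 also had earlier were CTCF and STAG2 sites too. Shared peaks with the history of the second block were also weak and mostly under the STAG1 list. With 1 library per group no difference has a replicate check and no p-value is given. Intervals in brackets are 95% Wilson intervals of a share, or Newcombe intervals of a difference of shares, and cover counting error only, since neighbouring peaks and peaks of 1 library are not independent.

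Bases of the sites come first. The 24 h summits were matched to 34961 promoters of RefSeq's table on GRCh38.p14, each running from 250 bases before to 50 after a transcription start. The 12-base core of the CTCF motif (the letters CC, AG and GGC, with 3 free bases between the first 2 parts and 2 before the last) was searched on both strands. It stood in 10.6% of all promoters, in 37.5% (34.7 to 40.5) of the 1055 that held a shared summit, in 27.0% (19.7 to 35.7) of the 115 with an A2-only summit and in 24.0% (20.6 to 27.9) of the 524 with a D7-only summit. The 1055 promoters with a shared summit had a median GC content of 66.7%, against 58.7% over all promoters. A match is a description of the letters only. The stretches of 72 bases below are written along the gene's strand, lie before the start, and have the matched letters, or their reverse complement, in capitals. The first set shows the strongest shared promoter peaks with 1 such match.
DIP2B, chr12:50504860-50504931, + strand: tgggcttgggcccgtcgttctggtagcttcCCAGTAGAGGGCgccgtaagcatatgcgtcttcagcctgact
SNX18, chr5:54517555-54517626, + strand: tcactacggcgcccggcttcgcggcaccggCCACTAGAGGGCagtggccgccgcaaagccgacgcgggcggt
AHCYL1, chr1:109984555-109984626, + strand: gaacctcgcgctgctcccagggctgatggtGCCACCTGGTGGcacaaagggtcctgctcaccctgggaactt
The next set shows promoter peaks of 1 clone that held the same letters, RAP2C and LOC124900404 in A2 and GPRIN1 and ZBBX in D7.
RAP2C, chrX:132219459-132219530, - strand: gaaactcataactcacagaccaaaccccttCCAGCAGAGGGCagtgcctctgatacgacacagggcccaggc
LOC124900404, chr1:98054284-98054355, + strand: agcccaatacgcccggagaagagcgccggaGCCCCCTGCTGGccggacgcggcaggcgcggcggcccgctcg
GPRIN1, chr5:176610176-176610247, - strand: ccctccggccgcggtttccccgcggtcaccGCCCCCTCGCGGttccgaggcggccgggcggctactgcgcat
ZBBX, chr3:167380354-167380425, - strand: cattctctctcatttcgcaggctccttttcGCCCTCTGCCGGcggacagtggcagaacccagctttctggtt
The letters were thus present in promoter peaks of all 3 classes. DIP2B, a disco-interacting protein family gene, had RAD21 folds of 102, 55.2 and 84.5 in the A2 lists (DMSO, 4 h, 24 h) and of 92.9, 214 and 160 in the D7 lists. SNX18, a sorting nexin gene, had 89.6, 59.6 and 86.2 in A2 and 75.8, 110 and 116 in D7. A fold is the authors' enrichment of the summit over local background and is read within its own list only. RAP2C, a small GTPase gene, had 14.1 in A2 DMSO and 13.6 in A2 24 h, and 14.3 and 9.26 in D7 DMSO and D7 4 h, with no peak at A2 4 h or D7 24 h. GPRIN1 had 7.36 in A2 DMSO and 4.78, 9.88 and 10.99 in the D7 lists, with no peak at A2 4 h or 24 h.

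The strongest 1-clone peaks at promoters did not all hold these letters. The stretches of 61 bases below are centred on the summit, with the 11 central bases in capitals, and show the strongest A2-only promoter peaks of the protocadherin cluster and 2 strong D7-only promoter peaks.
PCDHGB5, chr5:141397871-141397931, + strand: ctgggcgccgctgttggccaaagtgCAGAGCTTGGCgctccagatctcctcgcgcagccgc
PCDHB13, chr5:141213840-141213900, + strand: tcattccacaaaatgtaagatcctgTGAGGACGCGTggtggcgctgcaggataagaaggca
CLUL1, chr18:616515-616575, + strand: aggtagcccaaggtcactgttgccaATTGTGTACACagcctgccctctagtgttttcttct
SCN2A, chr2:165239341-165239401, + strand: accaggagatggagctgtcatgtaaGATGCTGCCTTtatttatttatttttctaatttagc
The peaks at PCDHGB5 and PCDHB13, chosen after their values were seen, were in the A2 lists alone. PCDHGB5, a clustered protocadherin gene, had folds of 23.3, 11.5 and 17.6 in A2 (DMSO, 4 h, 24 h) and no peak in any D7 list. PCDHB13 had 5.85, 8.16 and 12.6 in A2 and none in D7. The CLUL1 and SCN2A peaks were D7-only at 24 h but were in A2 lists before. CLUL1, a clusterin-like gene, had 44.3 and 42.01 in A2 DMSO and A2 4 h, none at A2 24 h, and 14.5, 9.70 and 40.8 in D7. SCN2A, a sodium channel gene, had 20.9 and 18.7 in A2 DMSO and A2 4 h, none at A2 24 h, and 8.25, none and 13.9 in D7. Their promoters were poor in GC, at 37.0% for CLUL1 and 31.7% for SCN2A, as was that of OXCT1 at 36.3%, a ketone body enzyme gene with a D7-only fold of 46.1. They are not typical of the class, since the 524 promoters with a D7-only summit had a median GC content of 68.0%. Nor did all strong D7-only promoter peaks have an A2 history: KLHDC7B-DT had 9.32, 8.36 and 12.4 in D7 and no peak in any A2 list.

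The 24 h libraries went in part against their clone labels, which touches every statement on 1-clone peaks. There were 2164 sites present in A2 DMSO and A2 4 h and absent from D7 DMSO and D7 4 h. Of these, 1303 (60.2%, 58.1 to 62.3) were in the D7 24 h list only, 217 (10.0%) in the A2 24 h list only, 123 in both and 521 in neither. Among the 1010 of them in the upper 50% of the A2 DMSO list, 830 (82.2%) were in D7 24 h only. In the other direction, of 2404 sites in D7 DMSO and D7 4 h and in neither A2 list, 459 (19.1%) were in D7 24 h only, 224 (9.32%) in A2 24 h only, 241 in both and 1480 in neither. Over 18954 sites present in all 6 RAD21 lists, Spearman's rho of fold was 0.804 between D7 24 h and A2 4 h and 0.763 between D7 24 h and D7 4 h. It was 0.780 between A2 24 h and D7 4 h and 0.729 between A2 24 h and A2 4 h. The DMSO lists were mixed. A2 DMSO had 0.791 with D7 24 h and 0.697 with A2 24 h. D7 DMSO had 0.729 with D7 24 h and 0.722 with A2 24 h, which followed the clone label. Nor did the order of folds always follow the clone before 24 h. A2 DMSO had 0.745 with A2 4 h, 0.761 with D7 4 h and 0.825 with D7 DMSO. D7 DMSO had 0.836 with D7 4 h and 0.595 with A2 4 h, which followed the clone label. These are descriptions over shared sites. The 1-clone protocadherin sites were mixed: of 4 A2-only sites, 3 were in no D7 list, and of 4 D7-only sites, 1 was in no A2 list. The STAG2 list, made from clone D7, held 1180 of the 2164 sites (54.5%), while the STAG1 and PDS5A lists of the same clone held 41 and 35. What sets these sites apart was not tested. An exchange of the clone labels at 24 h would leave the shared peaks, and the sites found in both or neither, as they are.

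**Figure D1:**
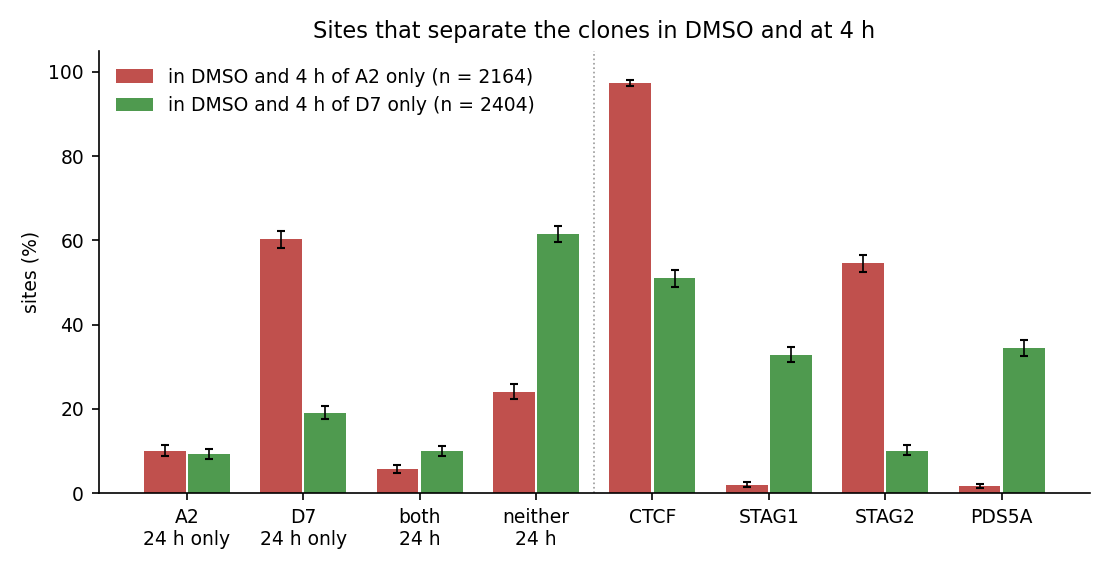
Bars give the percent of sites (y axis) that were present in the DMSO and 4 h RAD21 lists of A2 only (red) or D7 only (green) and that were found in each 24 h class or other list (x axis), with 95% Wilson intervals. The red bar for D7 24 h only stands at 60.2%, above the 10.0% for A2 24 h only.

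The first question was how far residual sites were the same in both clones. Of the A2 peaks, 23409 of 28589 (81.9%, 81.4 to 82.3) were overlapped by a D7 peak, and of the D7 peaks 23417 of 30114 (77.8%, 77.3 to 78.2) by an A2 peak. This left 5180 A2-only and 6697 D7-only peaks. Merged into 35223 sites, 23346 (66.3%) were shared, 14.7% were A2-only and 19% D7-only. In DMSO the shares were 80.5% of 39713 A2 peaks and 84.4% of 37566 D7 peaks. With the 28589 strongest peaks of every list, overlap was 80.5% of A2 and 80.4% of D7 at 24 h and 84.3% and 84.1% in DMSO. At this length the clones overlapped less at 24 h than in DMSO, by 3.86 points (A2 lists) and 3.68 (D7 lists), with no replicate check. The cut left more weak peaks out of the longer DMSO lists, and sharing rose with strength at 24 h. The gaps thus cannot be read as lost agreement. With each pair cut to its own shorter list, DMSO overlap was 82.2% and 81.7%. With 50% overlap of both peaks, the A2 share was 78.6% at 24 h and 75.3% in DMSO, and the D7 share 74.6% and 79.6%. The lowest local background in each list, used here in place of the read depth, was 2.83 fragments at A2 24 h, 3.07 at D7 24 h, 1.87 at A2 DMSO and 3.00 at D7 DMSO. With pileups thinned to the lower of the 2 backgrounds, the 24 h shares were 81.8% and 77.9%. Without sites that separated the clones in DMSO and at 4 h, an alternative chosen after the pattern was seen, the 24 h shares were 82.9% of A2 and 82.4% of D7.

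Where both clones had a peak, it was nearly the same peak. The median overlap was 612 bp, the summits lay a median of 16 bp apart, and 18758 of 23409 pairs (80.1%) had summits within 50 bp. The strength order was also alike, with a Spearman's rho of 0.81 between the within-list percentiles of fold over the 23409 pairs. A2 exceeded D7 by more than 25 percentile points in 1376 pairs and D7 exceeded A2 by as much in 1753. Of the 1-clone peaks, 14.4% of A2-only and 12.4% of D7-only peaks had a summit of the other list within 5 kb, and 25.7% and 22.3% within 10 kb. The median distances were 24988 and 28663 bp.

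Sharing rose with strength in both lists. The weakest quintile (20% of peaks by fold) of the A2 list was shared at 56.1% and the strongest at 99.9%, with 66.4%, 88.7% and 98.2% between them. In D7 the shares were 42.1%, 72.4%, 86.5%, 91.5% and 96.3%. Shared peaks had a median fold of 13.7 in A2 and 14.5 in D7, against 5.38 for A2-only and 5.53 for D7-only peaks, and median widths of 720 and 691 bp against 441 and 467 bp. The strongest quintiles differed between the clones, since 7 A2 peaks and 224 D7 peaks there had no partner, and each of the 224 overlapped CTCF.

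**Figure D2:**
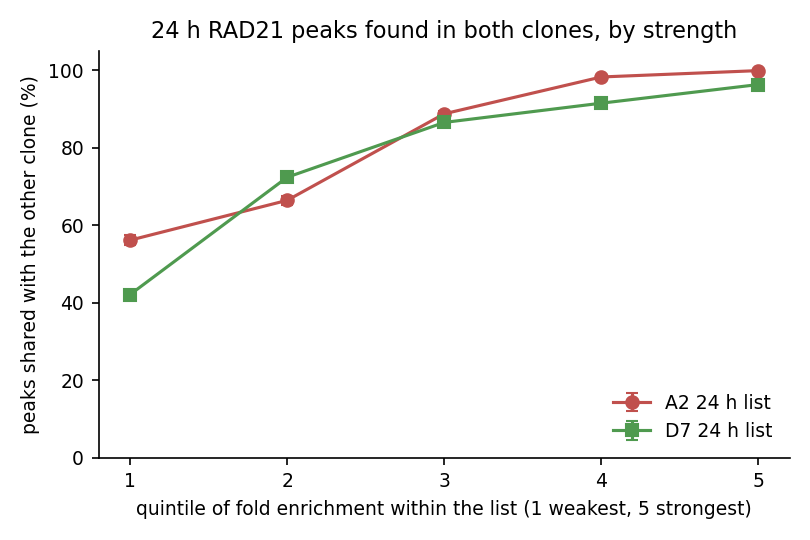
The percent of 24 h RAD21 peaks with a peak of the other clone (y axis) is drawn against the quintile of fold enrichment within the own list (x axis) for A2 (red circles) and D7 (green squares), with 95% Wilson intervals. Both lines rise, from 56.1% to 99.9% in A2 and from 42.1% to 96.3% in D7.

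The 6 strongest shared peaks were among the strongest in all 6 RAD21 lists. Inside HSF2BP, a gene of meiotic recombination, the peak at chr21:43645316-43647374 had folds of 130, 112 and 201 in A2 (DMSO, 4 h, 24 h) and 156, 286 and 186 in D7. The peak at chr21:38355671-38356696, 11070 bp from ERG, an ETS transcription factor gene, had 133, 125 and 191 in A2 and 128, 246 and 179 in D7. At chr17:43483137-43484234, 257 bp from the start of DHX8, an RNA helicase gene of splicing, the values were 141, 109 and 171 in A2 and 128, 332 and 223 in D7. The D7 values at 4 h and 24 h were the highest folds of their lists. The other 3 lay inside PLAAT5, near LPAR3, a lysophosphatidic acid receptor gene, and near SYCE1L, and all 6 were at or above the 99.0 percentile in every RAD21 list. All 6 also overlapped CTCF, STAG1, STAG2 and PDS5A peaks, and all but the DHX8 peak a WAPL peak.

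CTCF marked the shared class most, but most 1-clone peaks too. Of shared peaks 95.8% (95.5 to 96.0) overlapped a wild-type CTCF peak, against 67.8% (66.6 to 69.1) of A2-only and 72.5% (71.5 to 73.6) of D7-only peaks. Over each whole list the share was 90.7%. The difference between shared and A2-only peaks was 28.0 points (26.7 to 29.3), and between shared and D7-only peaks 23.4 points (22.3 to 24.5). CTCF was at fewer A2-only than D7-only peaks, with a difference of -4.70 points (-6.37 to -3.04), but without the sites that separated the clones in DMSO and at 4 h CTCF was at 67.3% of A2-only and 67.4% of D7-only peaks. Part of this went with strength, and the class difference narrowed at higher folds. In the weakest quintile, CTCF was at 76.9% of shared and 51.0% of A2-only peaks, and in D7 at 71.9% and 52.0%. In the middle quintile it was at 99.3% and 94.1% in A2 and at 99.8% and 98.5% in D7. Read the other way, weak A2 peaks with CTCF were shared at 65.9% and weak A2 peaks without it at 37.7%.

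The cohesin subunits and partners followed the same order. Their shares were not split by strength, and shared peaks were the stronger ones. STAG1 peaks covered 81.5% of shared, 27.4% of A2-only and 30.9% of D7-only peaks, and PDS5A peaks 65.7%, 19.9% and 24.3%. WAPL peaks, a list of only 2667, covered 11.1% of shared peaks, 0.0579% of A2-only peaks (3 peaks) and 0.567% of D7-only peaks (38 peaks). STAG2 set the 1-clone classes apart, with 68.7% of shared, 17.5% of A2-only and 34.8% of D7-only peaks, 17.3 points (15.7 to 18.8) more in D7-only than in A2-only peaks. Neither STAG list covered 11.5% of shared peaks, 63.2% of A2-only and 40.3% of D7-only peaks. The STAG lists come from clone D7, so their overlap with D7-only peaks is within 1 clone.

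**Figure D3:**
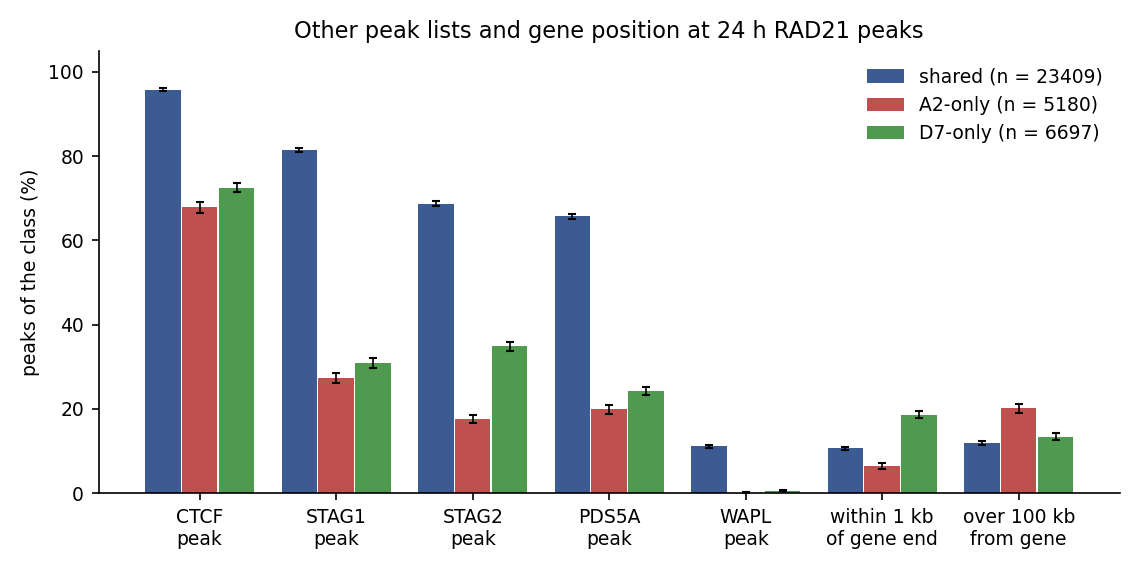
Bars give the percent of peaks (y axis) in the shared (blue, A2 intervals), A2-only (red) and D7-only (green) classes that overlap each other peak list or lie at the named gene position (x axis), with 95% Wilson intervals. Shared peaks stand highest for CTCF, STAG1, STAG2, PDS5A and WAPL, and D7-only peaks for gene ends, at 18.7%.

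Gene position separated the 2 clones' own peaks. Summits within 1 kb of an end of a protein-coding gene (its start or its finish) made up 10.6% of shared, 6.41% of A2-only and 18.7% of D7-only peaks, 12.3 points (11.1 to 13.4) fewer in A2-only than in D7-only peaks. In the D7 list, D7-only peaks exceeded shared peaks at gene ends only among weak peaks. The weakest quintile had 28.2% of D7-only and 19.7% of shared peaks there, and the next 14.1% and 12.96%. From the middle quintile up, D7-only peaks were lower, at 3.43% against 10.2%, 0.585% against 8.01% and 1.34% against 7.42%. From the weakest A2 quintile to quintile 4, A2-only peaks stood at 9.98%, 3.64%, 1.55% and 1.98%. Shared A2 peaks in the same quintiles stood at 26.4%, 12.02%, 8.52% and 7.72%. A2-only peaks were thus below shared peaks also among weak peaks, where D7-only peaks were above the shared ones. Summits inside a gene made up 44.7% of shared, 45.1% of A2-only and 56.1% of D7-only peaks. Summits more than 100 kb from any protein-coding gene made up 11.96%, 20.1% and 13.4%.

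D7-only peaks divided by their history. A block of 1306 lay in A2 DMSO and A2 4 h and in neither D7 DMSO nor D7 4 h, with CTCF at 99.9%, STAG2 at 74.4%, STAG1 at 1.45%, gene ends at 1.61% and a median percentile of 43.1. Another block of 1464 lay in both DMSO lists and D7 4 h but not in A2 4 h, with CTCF at 65.4%, STAG1 at 76.4%, STAG2 at 9.63%, gene ends at 46.4% and a median percentile of 11.5. The first block was thus of middling strength, away from gene ends and mostly under the STAG2 list. The second was weak, mostly under the STAG1 list and with 46.4% of its peaks at gene ends. Of the other D7-only peaks, 526 lay in A2 DMSO, A2 4 h and D7 DMSO, with CTCF at 98.7%, STAG2 at 77.2% and STAG1 at 11.4%. A further 708 lay in all 4 lists, with CTCF at 96.3%, STAG2 at 64.4% and STAG1 at 45.5%. Both groups had a median percentile of 42.1, so middling CTCF and STAG2 sites were not confined to the first block. The mirror image of the first block among A2-only peaks, those in D7 DMSO and D7 4 h and in neither A2 list, held 224 peaks, with CTCF at 57.6%. The A2-only peaks with the history of the second block numbered 843, with 17.1% at gene ends. Shared peaks with that history numbered 2277 (A2 intervals), with STAG1 at 78.8%, STAG2 at 22.6%, gene ends at 32.8% and a median percentile of 15.8. Weak STAG1 sites, many at gene ends, were thus not particular to D7-only peaks. The largest block of A2-only peaks, 1197 (23.1%), was in none of the 4 other RAD21 lists, against 659 D7-only peaks (9.84%).

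The strongest 1-clone peaks showed both behaviours. At chr22:16774374-16775231, 8634 bp from XKR3, the folds were 28.6, 35.3 and 55.9 in A2 (DMSO, 4 h, 24 h), with no peak in any D7 list. At chr8:57490995-57491924, 497616 bp from BPNT2, they were 27.3, 25.2 and 49.1 in A2, again with none in D7. Both overlapped wild-type CTCF and neither STAG list, and both kept to the A2 clone. At chr2:43021932-43022882, near LOC107985876, the A2 folds were 70.4, 32.0 and 49.3 and the D7 folds 17.0 and 9.70 in DMSO and at 4 h, so the site was lost from the D7 list at 24 h only. The 3 strongest D7-only peaks were gone from A2 at 24 h after being strong there earlier. At chr4:68498166-68499120, 1016 bp from TMPRSS11E, a serine protease gene, A2 had 62.2 and 80.4 in DMSO and at 4 h and D7 had 17.5, 13.7 and 93.2. Inside PRUNE2, at chr9:76809950-76811133, A2 had 56.5 and 70.3 and D7 had 18.8, 14.8 and 89.0. Inside ANK3, the ankyrin-G gene, at chr10:60434133-60435150, A2 had 39.3 and 77.6 and D7 had 26.3, 23.4 and 86.5.

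**Figure D4:**
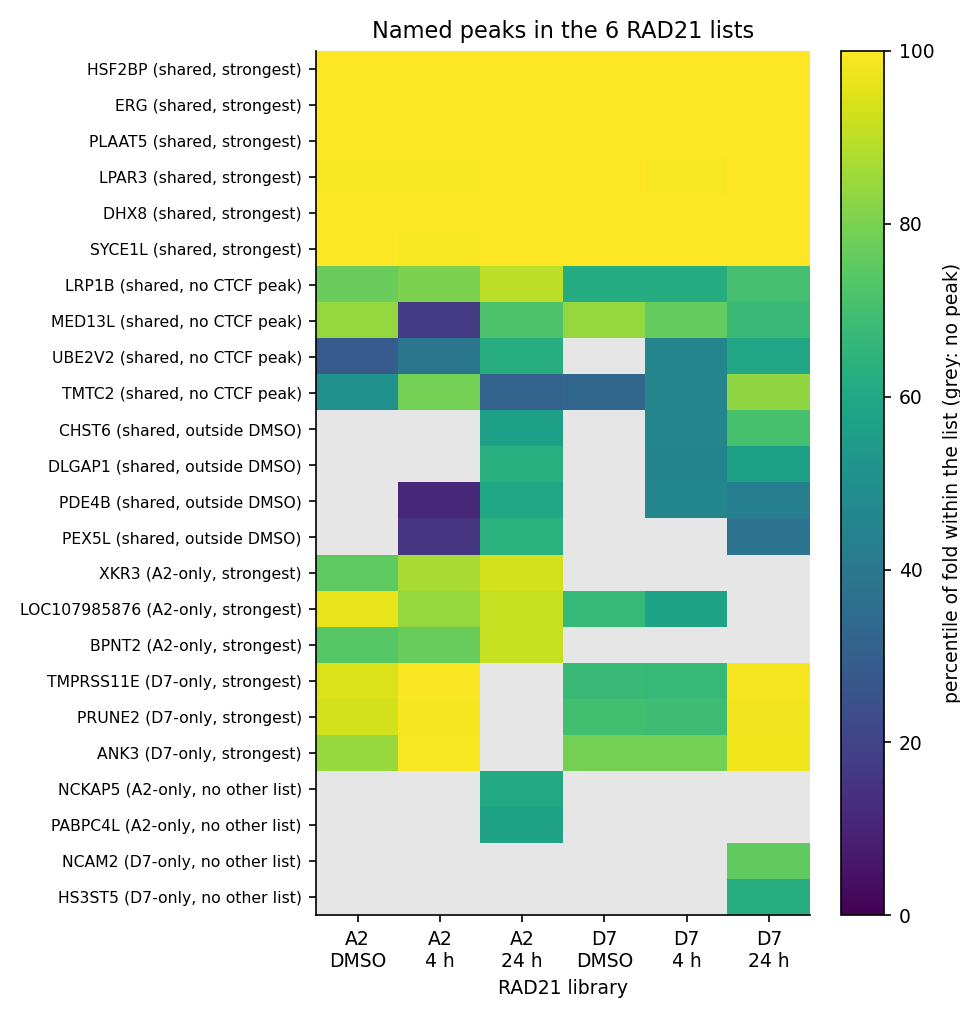
Each row is a named peak with its nearest gene, each column a RAD21 library, and the colour the percentile of fold within that list (0 to 100), grey where no peak was called. The 6 top rows are at or above the 99.0 percentile in all columns, and the TMPRSS11E, PRUNE2 and ANK3 rows are grey in the A2 24 h column only.

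The next question was which sites that both clones had in DMSO were still peaks at 24 h. Of 31980 common DMSO sites (A2 DMSO peaks overlapped by a D7 DMSO peak), 21859 (68.4%, 67.8 to 68.9) were in both 24 h lists, 2150 (6.72%) in A2 only, 2946 (9.21%) in D7 only and 5025 (15.7%, 15.3 to 16.1) in neither. The clones thus sorted most sites alike. A site still called in A2 was called in D7 in 91.0% of cases, and a site lost in A2 in 37.0%. By DMSO strength, the share in both lists was 20.1%, 48.3%, 77.8%, 95.8% and 99.8% from the weakest to the strongest quintile, and 1 of 6396 sites of the strongest quintile was in neither. Within the weakest quintile a site kept in A2 was in D7 in 64.8% of cases and a site lost in A2 in 27.5%. The sorting was thus alike within this quintile too, but strength still varies inside a quintile and was not matched.

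**Figure D5:**
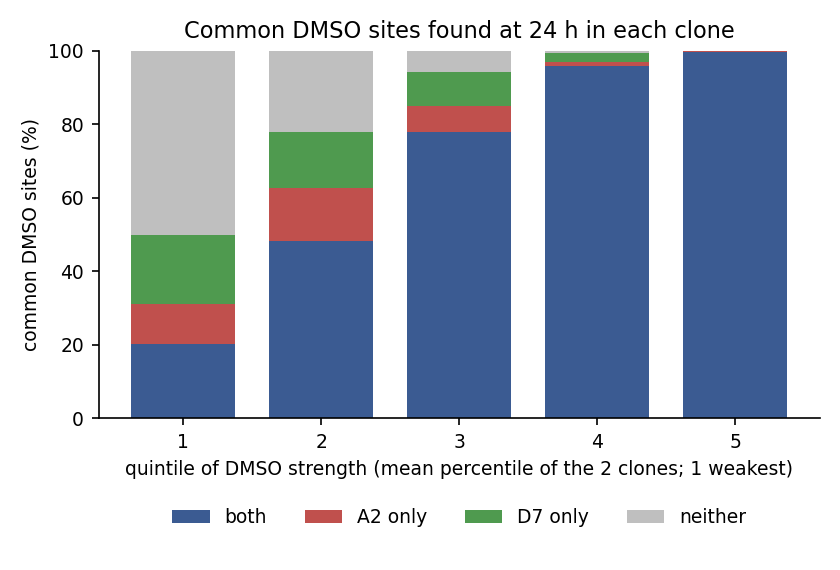
Stacked bars give the percent of common DMSO sites (y axis) found at 24 h in both clones (blue), A2 only (red), D7 only (green) or neither (grey), by quintile of DMSO strength (x axis, weakest at left). Blue grows from 20.1% to 99.8% and grey shrinks from 50.0% to 0.0156%.

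Sites kept in both clones and sites lost in both differed in the other lists and in position. CTCF was at 97.3% of sites kept in both and 65.1% of sites in neither, STAG1 at 85.9% and 50.0%, STAG2 at 72.4% and 13.3%, and PDS5A at 69.5% and 46.5%. The STAG1, STAG2 and PDS5A shares were not split by strength. Gene ends held 10.8% of the kept and 28.9% of the lost sites. Of 28662 common sites with CTCF, 74.2% were kept in both, and of 3318 without it, 17.9% were. In the weakest quintile this was 25.0% with CTCF and 14.1% without. Among CTCF sites of the weakest quintile, 19.9% were kept in both at gene ends and 27.4% away from them. In the next quintile the shares were 47.9% (44.6 to 51.2) and 48.9% (47.5 to 50.2), so the difference was not seen there. It was seen again in the middle quintile, with 71.5% (67.8 to 74.8) and 78.8% (77.7 to 79.9). In quintile 4 the shares were 94.1% (91.8 to 95.8) and 96.0% (95.5 to 96.5), and in the strongest 99.7% and 99.8%.

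Most residual peaks without CTCF were in 1 clone only. There were 985 shared peaks with no CTCF peak (A2 intervals), 1666 A2-only and 1839 D7-only ones. Of all peaks, 81.9% of A2 and 77.8% of D7 peaks were shared, but weak peaks were shared less. In the weakest quintile, 56.1% of all A2 peaks and 37.7% of those without CTCF were shared. In D7 these shares were 42.1% and 29.9%. Of the 985, 742 were in the weakest A2 quintile, where 26.4% of all shared peaks were at gene ends. The comparisons with all shared peaks that follow were not matched for strength. Gene ends held 21.7% of the 985, against 10.6% of all shared peaks, and 57.1% overlapped STAG1, against 81.5%. In both DMSO lists were 64.0%, against 93.6% of all shared peaks. The A2 4 h list held 16.3% of them, against 85.3%, and the D7 4 h list 82.6%, against 94.99%. The strongest was at chr2:139946518-139947328, 284523 bp from LRP1B, a lipoprotein receptor family gene, with folds of 30.5, 27.9 and 45.7 in A2 and 14.3, 11.2 and 20.7 in D7. At chr12:116277554-116278226, 146 bp from the start of MED13L, a Mediator kinase module gene, they were 38.3, 5.99 and 21.1 in A2 and 32.6, 20.5 and 18.9 in D7. The MED13L site was thus low at A2 4 h and not at D7 4 h. The others named by the same rule were near UBE2V2, with 15.4 in A2 24 h and 14.8 in D7 24 h, and near TMTC2, with 6.795 and 33.2.

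Peaks found at 24 h and in neither DMSO list were seldom shared. They numbered 2159 in A2, of which 475 (22.0%, 20.3 to 23.8) were shared, against 81.9% of all A2 peaks, and 1672 in D7, of which 477 (28.5%, 26.4 to 30.7) were shared, against 77.8%. They made up 2.03% of shared, 32.5% of A2-only and 17.8% of D7-only peaks. They were weak, with a median fold of 5.57 in shared, 4.91 in A2-only and 4.39 in D7-only peaks. CTCF was at 68.0% of the shared, 46.8% of the A2-only and 42.2% of the D7-only ones, and a 4 h list of either clone held 62.5%, 28.9% and 44.9%.

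The strongest shared ones of this kind all overlapped CTCF and lay inside genes. In CHST6, a sulfotransferase gene, the peak at chr16:75491753-75492273 had 12.8 in A2 24 h and 6.65 and 20.9 in D7 4 h and 24 h. In DLGAP1, a synaptic scaffold gene, the peak at chr18:3635241-3635953 had 15.8 in A2 24 h and 6.53 and 13.8 in D7 4 h and 24 h. PDE4B, a phosphodiesterase gene, had 5.19 and 14.4 in A2 4 h and 24 h and 6.73 and 9.53 in D7. PEX5L had 5.74 and 16.2 in A2 4 h and 24 h and 8.49 in D7 24 h only. Among peaks seen in a single RAD21 list, the strongest in A2 lay inside NCKAP5 (fold 14.6) and near PABPC4L (13.3), and those in D7 inside NCAM2, a cell adhesion gene (24.4), and near HS3ST5 (16.2). All 4 overlapped wild-type CTCF, and the D7 pair also STAG2.

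Loci of known interest were read against the 66.3% of all 24 h sites that were shared. Within 10 kb of 39 HOX genes, which pattern the body axis, 15 of 17 sites were shared and the other 2 were A2-only. A shared site at HOXB3 had folds of 92.4, 53.6 and 90.8 in A2 and 54.2, 81.9 and 67.3 in D7. The A2-only site at HOXA3 had 11.8, 6.61 and 11.1 in A2 and 8.75 and 9.31 in D7 DMSO and 4 h, and that at HOXD8 had 33.2, 11.4 and 6.69 in A2 and 44.6 and 27.6 in D7. Both were thus D7 sites before 24 h as well.

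Clustered protocadherins, adhesion genes whose promoters loop to enhancers through CTCF and cohesin, had 11 of 19 sites shared, 4 A2-only and 4 D7-only. Many of these genes lie in 1 tandem array and overlap in annotation, so sites and not genes were counted. The interval of that share, 36.3 to 76.9%, held the 66.3% of all sites. At chr5:141417150-141418128 in the gamma cluster a shared site had 42.2, 28.2 and 41.2 in A2 and 63.9, 80.02 and 68.7 in D7. The site at PCDHB2 was D7-only, with 6.15 in A2 4 h and 9.75, 8.72 and 9.35 in D7.

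Genes of cohesin and its regulators had 14 of 19 sites shared, 1 A2-only and 4 D7-only. STAG1 itself held 2 shared and 2 D7-only sites, and the shared site at its start had 56.5, 14.9 and 22.9 in A2 and 71.1, 30.1 and 50.1 in D7. PDS5B held 3 shared sites, and the site at its start had 45.1, 31.8 and 40.9 in A2 and 59.3, 88.1 and 71.5 in D7. ESCO2, an acetyltransferase gene of cohesion, had 1 D7-only site (8.08 in A2 DMSO and 6.14, 7.92 and 5.72 in D7) and none shared. No 24 h site lay within 10 kb of NIPBL, SMC1A, WAPL, ESCO1, HDAC8 or SGO1.

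Genes of the retinal pigment epithelium had 16 of 22 sites shared, 1 A2-only and 5 D7-only. MITF, the pigment cell transcription factor gene, held the most, with 4 shared sites. At TYRP1, a melanin enzyme gene, the shared site had 23.7, 37.2 and 40.5 in A2 and 36.01, 37.8 and 35.2 in D7. A D7-only site near the same gene had 25.2 and 36.5 in A2 DMSO and 4 h and 22.1 in D7 24 h only, which is the history of the block of 1306. TYR had 1 A2-only and 1 D7-only site and none shared.

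YAP and AP-1 target genes had 18 of 26 sites shared, 3 A2-only and 5 D7-only. AMOTL2, an angiomotin family gene, held 3 shared and 2 D7-only sites. At THBS1, the thrombospondin gene, the shared site had 81.4, 30.1 and 87.3 in A2 and 47.6, 121 and 79.3 in D7. At ANKRD1 it had 55.4, 28.4 and 108 in A2 and 60.3, 42.2 and 52.0 in D7. AXL, a receptor kinase gene, had 1 A2-only site (19.9, 6.01 and 4.97 in A2 and 28.2 and 11.5 in D7 DMSO and 4 h) and none shared. None of the 5 locus lists stood apart, since each list's interval held the 66.3% of all sites.

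Across chromosomes the shared percent of A2 peaks ran from 77.2% on chromosome 13 to 88.4% on chromosome 17, and that of D7 peaks from 71.3% on chromosome 4 to 84.5% on chromosome 20. On chromosome 4, D7-only peaks numbered 507 of 1768 and A2-only peaks 277 of 1543.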

How the data were processed

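The data were 12 ChIP-seq peak lists of single libraries, 6 of them RAD21; the 10 inputs were not analysed here. The submitters' processing notes name BWA, Picard, SAMtools, bedtools, deepTools and MACS2 and the builds hg38 and mm10, with no versions. The fold enrichment (a ratio), the score, and the −log10 p and −log10 q of each peak are the authors' values as deposited. Peaks were called per library. Read totals were not used here; the lowest local background of a list stood in for depth and was recovered from the deposited fold and −log10 p (whole pileups within 0.01 for all peaks below a −log10 p of 250).

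Peaks were matched with Python 3.11.15, numpy 2.4.6, pandas 2.3.3 and scipy 1.17.1, tested on simulated data. Genes (19970 protein-coding) and promoters came from RefSeq tables on GRCh38.p14. Promoters of chromosome 8 were not analysed here. Of 24 h summits, 11.5% lay within 1 kb of a start, against 2.67 to 3.00% after displacement by 10 or 50 kb. The regions and lists were chosen with earlier results of these data known. Peaks named by rule were the 6 strongest shared, 4 shared without CTCF, 4 shared outside both DMSO lists, 3 of each clone alone, and 2 of each clone in no other RAD21 list. Members of gene lists were named where they held the most sites or sites of 1 clone only. Other named promoters and sites were chosen after their values were seen.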

Additional observations from a re-analysis of the deposited data

Results flagged for a closer look

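The median width of RAD21 peaks moved in opposite directions between DMSO and 24 h in the 2 clones, by 18 bp in A2 (from 641 to 659 bp) and by -53 bp in D7 (from 692 to 639 bp). The difference was not tested, since each group is 1 library.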

How the results depend on the processing

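No paired analysis was possible because every group held 1 library, and no library could be left out. Of 60 alternative values, 47 lay outside the 95% interval of the main share. CTCF was at more shared than 1-clone peaks under each setting run. Gene position was run again only with the 2.5 kb window and within 1 kb of a transcription start. Both held more D7-only than A2-only peaks. CTCF was at more D7-only than A2-only peaks except with 50% overlap and without the sites that split the clones, where the shares were about equal. Values follow as 24 h overlap (A2, D7), DMSO overlap (A2, D7), CTCF (shared, A2-only, D7-only), common DMSO sites in both 24 h lists, and shared percent of A2 peaks outside both DMSO lists. With 50% overlap of both peaks they were 78.6%, 74.6%, 75.3%, 79.6%, 82.5%, 49.4%, 49.2%, 66.3% and 29.5%. With summits within 200 bp the first 7 were 78.0%, 74.0%, 74.8%, 79.0%, 94.1%, 56.0% and 66.9%. With a −log10 q of at least 10 the 9 values were 84.6%, 81.0%, 83.0%, 85.9%, 98.9%, 84.5%, 91.96%, 73.9% and 24.6%. At equal list length the overlaps were 80.5%, 80.4%, 82.2% and 81.7%, CTCF was at 96.6% of shared and 79.5% of D7-only peaks, and 69.6% of common sites were in both. With pileups thinned to an equal lowest background, which does not equal full depth matching, the DMSO overlaps were 79.1% and 86.0%, and 69.4% of common sites were in both. With the upper 50% of CTCF peaks, CTCF was at 83.0%, 31.4% and 46.5%. The next 2 changes were added after seeing the data. Without the sites that split the clones in DMSO and at 4 h, overlap was 82.9% and 82.4%. CTCF was then at 96.2% of shared, 67.3% of A2-only and 67.4% of D7-only peaks. Within 1 kb of a transcription start lay 7.39% of A2-only and 20.1% of D7-only peaks. Within 2.5 kb of a gene end lay 17.1% of shared, 10.5% of A2-only and 24.8% of D7-only peaks. The same thinning of D7 24 h to A2 24 h took its list from 30114 to 30032 peaks.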

Other observations

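Among promoters with a summit from the upper 50% of the wild-type CTCF list, presence in the other lists varied with GC content in different ways. From the lowest to the highest of 5 bins (below 40% GC, 40 to 50%, 50 to 60%, 60 to 70%, and 70% or more, with 32, 95, 241, 471 and 376 promoters), the A2 24 h list held 46.9%, 80%, 59.8%, 58.8% and 55.6%. The D7 24 h list held 53.1%, 82.1%, 61.0%, 62.8% and 65.2% of the same promoters. Both were thus highest at 40 to 50% GC. So were the A2 DMSO (89.5%), D7 DMSO (90.5%), D7 4 h (88.4%), STAG1 (81.1%) and STAG2 (68.4%) lists, so this was not particular to 24 h. The A2 4 h list held 24 of 32 in the lowest bin, then 76.8%, 52.3%, 47.1% and 44.4%, and the PDS5A list 25%, 58.9%, 81.7%, 87.0% and 91.2%.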
